A study of Homo sapiens with 9 samples.

Results

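The genes described here encode the subunits of the Polycomb repressive complexes PRC1 and PRC2, measured in the human cholangiocarcinoma (bile duct cancer) cell line HCCC-9810. The list holds 35 genes, taken by symbol, and a gene counted as measured where a probe set of the array carried its symbol alone. By this rule 32 of the 35 genes were measured, by 110 of the 49395 probe sets, and all 32 were among the 12434 genes bright enough to test. RNF2 and CBX8 were not analysed here, and both probe sets of BMI1 also carry the symbol of a read-through gene, so BMI1 was left out. The measured genes cover 6 core PRC2 subunits, 5 accessory PRC2 subunits, RING1 as the ubiquitin ligase of PRC1, 5 PCGF proteins, 7 subunits of canonical PRC1 and 8 subunits of variant PRC1.

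The 9 arrays form 3 groups of 3: cells given siRNAs to BAP1, cells given siRNAs to MBD5, and control cells. The control arrays are named si-Control, whereas other labels of the same samples call the control reagent an shRNA. The labels name no genetic change made to the cells and no time after transfection. The series gives each group 3 biological replicates of 1 cell line, with no word on separate cultures or days, so the p-values reflect the spread of these 9 samples, which may in part be technical.

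PRC2 places methyl groups on the tail of histone H3, through EZH2 or EZH1 held together by EED and SUZ12. PRC1 attaches ubiquitin to histone H2A through RING1 or RNF2, each paired with a PCGF protein; canonical PRC1 adds a CBX and a PHC protein, and variant PRC1 adds RYBP or YAF2. BAP1 is the catalytic subunit of the complex that removes ubiquitin from H2A, and MBD5 is a methyl-CpG-binding domain protein known to associate with that complex.

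The siRNA target MBD5 was dim in every array. Its brighter probe set read 7.16, 7.06 and 6.90 in the 3 control arrays and 6.20, 6.20 and 6.11 in the 3 si-MBD5 arrays, below the filter of 25.5. The si-MBD5 arrays all lay below the controls, but the difference did not pass (log2 fold change -0.055 on the scale below, limma adjusted p = 0.308), so these values check the labels weakly; BAP1 itself was not analysed here. Of the cholangiocyte markers, 4 of 7 on the array were above the filter, with KRT18 at 1721 and KRT7 at 1034, while KRT19 (20.6) and EPCAM (8.67) were below it. Also above it were 3 of 8 hepatocyte, 4 of 9 fibroblast and endothelial and 3 of 7 immune markers. The brightest of these 3 lists read 45.9, 60.9 and 63.5, in that order. The ACTB 3′ to 5′ signal ratio, a sign of RNA quality, was 10.8 to 11.4 in si-BAP1 arrays and 11.8 to 12.8 in control arrays (exact two-sided permutation test, p = 0.1, the lower limit for groups of 3). It was 11.6 to 13.0 in si-MBD5 arrays. The GAPDH ratio was 1.070 to 1.092 in si-BAP1, 1.066 to 1.074 in si-MBD5 and 1.032 to 1.084 in control arrays. Its si-BAP1 and control ranges overlapped (exact two-sided permutation test, p = 0.3). The part of either ratio in the differences described here was not tested. In bulk RNA, a change in the mix of cells and a change per cell cannot be told apart.

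The 250 bases before the transcript start are printed for 4 members on which the results turn. MTF2 moved in opposite directions in the knockdowns, EED fell and KDM2B rose in both, and PCGF5 had the greatest change. They are RefSeq sequences of GRCh38.p14, read 5′ to 3′ on the gene's strand, with CG dinucleotides in capitals. MTF2 (chr1:93079033-93079282, plus strand) has 25 CG dinucleotides, EED (chr11:86244503-86244752, plus strand) has 11, PCGF5 (chr10:91162762-91163011, plus strand) has 41 and KDM2B (chr12:121581024-121581273, minus strand) has 13. MTF2 and EED have 1 listed start, and the window of PCGF5 and of KDM2B belongs to the first of 4 starts. Over their 4 starts, the windows held 2 to 41 CG dinucleotides in PCGF5 and 11 to 34 in KDM2B. The files do not say which transcript a probe set reads.
MTF2: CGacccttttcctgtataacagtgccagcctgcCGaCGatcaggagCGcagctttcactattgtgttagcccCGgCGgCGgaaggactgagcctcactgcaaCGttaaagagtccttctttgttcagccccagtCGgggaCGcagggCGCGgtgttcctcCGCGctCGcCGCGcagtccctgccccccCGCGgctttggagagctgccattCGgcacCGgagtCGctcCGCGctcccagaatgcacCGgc
EED: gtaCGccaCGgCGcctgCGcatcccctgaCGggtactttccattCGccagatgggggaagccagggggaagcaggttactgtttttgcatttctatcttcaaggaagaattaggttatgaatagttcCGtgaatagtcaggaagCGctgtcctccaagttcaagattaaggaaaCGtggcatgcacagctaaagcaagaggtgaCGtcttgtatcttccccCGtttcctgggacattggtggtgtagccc
PCGF5: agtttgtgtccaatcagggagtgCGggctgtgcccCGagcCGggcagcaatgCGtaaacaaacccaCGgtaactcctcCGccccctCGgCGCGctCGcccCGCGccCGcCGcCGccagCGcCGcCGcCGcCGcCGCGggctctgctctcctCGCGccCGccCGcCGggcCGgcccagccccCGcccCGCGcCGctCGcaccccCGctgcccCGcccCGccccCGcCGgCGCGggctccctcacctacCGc
KDM2B: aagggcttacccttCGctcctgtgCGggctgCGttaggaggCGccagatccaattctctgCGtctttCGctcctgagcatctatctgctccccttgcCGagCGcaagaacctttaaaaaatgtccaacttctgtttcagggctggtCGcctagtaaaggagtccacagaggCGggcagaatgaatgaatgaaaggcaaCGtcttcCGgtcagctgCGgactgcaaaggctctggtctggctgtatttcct

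A promoter entry was found for 31 of the 32 measured members, with 48 windows in all. The median window held 25.5 CG dinucleotides, against 16 over the 22182 windows of coding genes. The E2F words TTTCCCGC, TTTCGCGC, TTTGCCGC and TTTGGCGC, searched on both strands, were found in 5 of the 48 windows (10.4%), those of AEBP2, EZH1, MGA, PHF19 and SUZ12, against 3.48% of coding windows. The E-box CACGTG was found in 6 windows (12.5%), those of BCOR, CBX6, PHC2, PHC3, RBBP4 and YAF2, against 7.38%. Of the 4 members printed above, none held either word. These matches describe letters, and the arrays do not bear on binding there.

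In si-BAP1 cells, the PRC2 genes and the 8 genes listed under variant PRC1 were mostly higher where they passed. PCGF5, a PCGF protein of variant PRC1 counted apart from those 8, was far lower. Of the 32 measured members, 10 were higher and 3 lower than control, 40.6% in all. Over the 12434 genes tested, 23.5% passed the same test, 12.4% higher and 11.1% lower. In si-MBD5 cells 2 members were higher and 2 lower, 12.5% in all, against 16.3% of all genes, 7.29% higher and 8.99% lower. A gene passed where its limma adjusted p (Benjamini-Hochberg over all genes tested) was under 0.05, and fold changes are on the log2(intensity + 16) scale, which understates changes of dim genes. The median log2 fold change of the members was 0.035 in si-BAP1 and 0.013 in si-MBD5 cells, and the median over all genes was 4.7e-04 and 8.5e-05. The arrays of si-BAP1 and control did not overlap in 15 of the 32 members, against 37.5% of all genes. Those of si-MBD5 and control did not overlap in 9 of the 32, against 30.4% of all genes. Both comparisons use the same 3 control arrays.

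**Figure D1:**
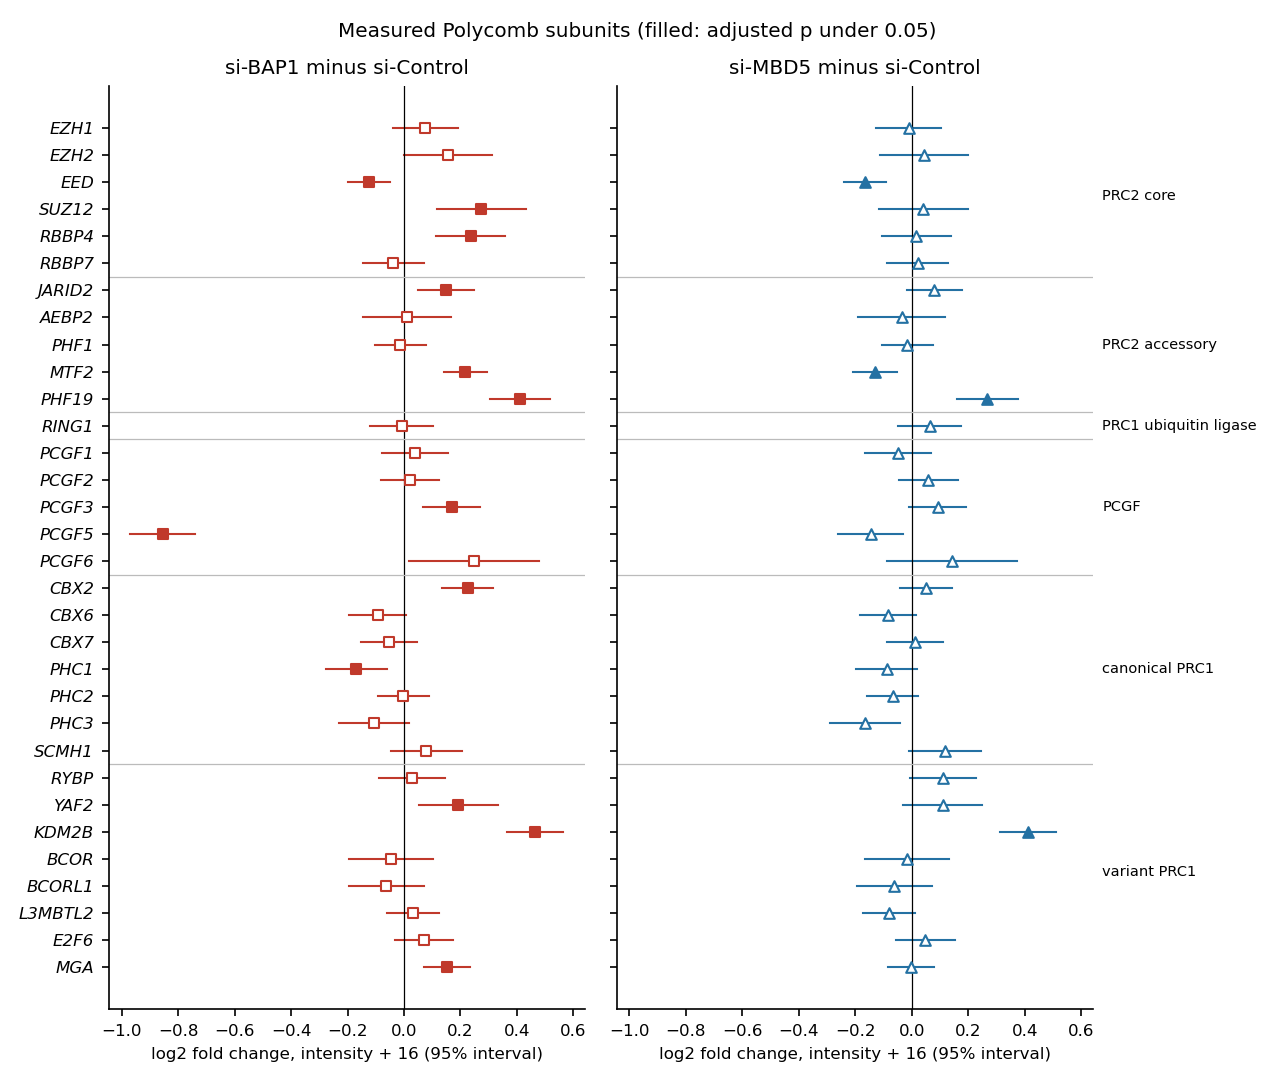
Log2 fold change of intensity + 16 (x axis) with its 95% interval for the 32 measured subunit genes (y axis), in si-BAP1 (left) and si-MBD5 (right) against si-Control; filled marks passed an adjusted p of 0.05. PCGF5 at -0.85 stands farthest from 0 in si-BAP1, and KDM2B at 0.41 does in si-MBD5.

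Among the 6 core PRC2 subunits, SUZ12 and RBBP4 were higher and EED lower in si-BAP1 cells, where 23.5% of all genes passed. In si-MBD5 cells, where 16.3% of all genes passed, EED was lower and no other core subunit passed. EED, the subunit that binds methylated H3 and activates the enzyme, read 1266, 1261 and 1279 in control, 1140.4, 1177 and 1171 in si-BAP1 and 1126, 1181 and 1084 in si-MBD5 arrays. All 6 knockdown arrays lay below all 3 controls. EED fell by 0.12 in si-BAP1 cells (SE 0.035, limma adjusted p = 0.0189) and by 0.17 in si-MBD5 cells (SE 0.035, adjusted p = 0.00541). The si-BAP1 and si-MBD5 arrays overlapped, with a difference of 0.041 (95% interval -0.034 to 0.12). The other EED probe sets gave -0.14 and -0.13 in si-BAP1 and -0.18 in both in si-MBD5 cells, none past the test over probe sets. The si-BAP1 call was lost without si-BAP1 replicate 1 (adjusted p = 0.0756), si-Control replicate 2 (0.0538) or si-Control replicate 3 (0.0534), and with the mean of the gene's probe sets (0.0729).

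SUZ12, the scaffold of PRC2, read 669, 694 and 739 in control, 773, 887 and 896 in si-BAP1 and 713, 809 and 649 in si-MBD5 arrays. The si-BAP1 arrays all lay above control, and the si-MBD5 arrays spread across the control range and beyond it. SUZ12 rose by 0.27 in si-BAP1 cells (SE 0.073, limma adjusted p = 0.0137), and its value in si-MBD5 cells was 0.041 (adjusted p = 0.774). The si-BAP1 call was lost without si-BAP1 replicate 2 (adjusted p = 0.0577), si-BAP1 replicate 3 (0.0697) or si-Control replicate 1 (0.0616). It was also lost with the types _x_at and _s_at left out, which can read more than one transcript or gene, since the brightest SUZ12 probe set left gave 0.088 (adjusted p = 0.557). The dimmest of the 3 passed over probe sets as higher in si-BAP1 cells (0.21, adjusted p = 0.0247) and in the direct difference from si-MBD5 (0.27, adjusted p = 0.0142). RBBP4, a histone-binding subunit shared with other chromatin complexes, read 383, 409 and 417 in control, 437, 499 and 499.6 in si-BAP1 and 422, 419 and 384 in si-MBD5 arrays. Its si-BAP1 arrays lay above all 6 others. RBBP4 rose by 0.24 in si-BAP1 cells (SE 0.057, adjusted p = 0.00782), with 0.28 from its dimmer probe set, and was 0.016 in si-MBD5 cells (adjusted p = 0.89).

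The catalytic subunits did not pass as genes. EZH2, the main methyltransferase of dividing cells, read 214, 219 and 228 in control, 219, 259 and 264 in si-BAP1 and 229, 249.6 and 205 in si-MBD5 arrays. The groups overlapped, and the si-BAP1 difference was 0.16 (95% interval 6.2e-05 to 0.31, limma adjusted p = 0.149). A dimmer EZH2 probe set, at a mean of 76.3 in control, 100.1 in si-BAP1 and 83.9 in si-MBD5 arrays, was higher in si-BAP1 cells by 0.33 (adjusted p = 6.6e-04 over 27195 probe sets). EZH1, the paralogue of EZH2, had a difference of 0.075 in si-BAP1 and -0.010 in si-MBD5 cells, and RBBP7, the paralogue of RBBP4, had -0.038 and 0.021; neither passed.

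Of the 5 accessory PRC2 subunits, 3 were higher in si-BAP1 cells, while in si-MBD5 cells 1 was higher and 1 lower. Over all genes, 23.5% passed in si-BAP1 and 16.3% in si-MBD5 cells. MTF2, a Polycomb-like protein that binds CG-rich DNA and directs PRC2 to it, read 536, 524 and 504 in control, 604, 611 and 611 in si-BAP1 and 468, 483 and 473 in si-MBD5 arrays. The 3 groups did not overlap, with si-BAP1 highest and si-MBD5 lowest. MTF2 rose by 0.22 in si-BAP1 cells (SE 0.036, limma adjusted p = 5.4e-04) and fell by 0.13 in si-MBD5 cells (SE 0.036, adjusted p = 0.0243). The direct difference of si-BAP1 minus si-MBD5 was 0.35 (SE 0.036, adjusted p = 4.2e-05). All 9 MTF2 probe sets passed as higher in si-BAP1 cells, at 0.17 to 0.36. In si-MBD5 cells all 9 were below 0, at -0.18 to -0.086, and 2 of them passed over probe sets. All 9 also passed in the direct difference, at 0.30 to 0.45. These probe sets read 1 gene and are not independent. The si-MBD5 call was lost without si-Control replicate 1 (adjusted p = 0.0974), si-Control replicate 2 (0.092), si-MBD5 replicate 1 (0.0775) or si-MBD5 replicate 3 (0.0509), after quantile normalization (0.0528), without _x_at and _s_at probe sets (0.0625) and with only the 6 arrays compared in the fit (0.0537).

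PHF19, another Polycomb-like protein, read 623, 591 and 543 in control, 801, 799 and 748 in si-BAP1 and 683, 703 and 734 in si-MBD5 arrays. The 3 groups did not overlap, and both knockdowns lay above control. PHF19 rose by 0.41 in si-BAP1 cells (SE 0.050, limma adjusted p = 4.7e-05) and by 0.27 in si-MBD5 cells (SE 0.050, adjusted p = 0.00244). The direct difference of 0.14 did not pass (95% interval 0.037 to 0.25, adjusted p = 0.0921), though it did without si-Control replicate 3 (0.0483). The other PHF19 probe sets had the opposite sign there, at -0.10 and -0.087, and the mean of all 3 gave -0.015 (adjusted p = 0.854). The brightest probe set alone carried the si-BAP1 rise, since the other PHF19 probe sets gave 0.076 and -0.014, and the mean of all 3 gave 0.16 (adjusted p = 0.00743). In si-MBD5 cells they gave 0.16 and 0.087, and the mean of all 3 gave 0.17. PHF1, the third Polycomb-like protein, had differences of -0.013 and -0.017 that did not pass.

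JARID2, an accessory subunit that binds DNA and nucleosomes, read 249, 249.7 and 243 in control, 272, 284 and 272 in si-BAP1 and 266, 276 and 246 in si-MBD5 arrays. The si-BAP1 arrays lay above control, and the si-MBD5 arrays overlapped both. JARID2 rose by 0.15 in si-BAP1 cells (SE 0.045, limma adjusted p = 0.0288), and all 4 of its probe sets passed, at 0.15 to 0.26. Leaving out any 1 of the 6 arrays compared ended the call, at adjusted p = 0.0556 to 0.101, and so did centring each array on its median (0.0588). Its value in si-MBD5 cells was 0.080 (adjusted p = 0.278), which passed when its probe sets were averaged (0.13, adjusted p = 0.024). AEBP2, found with JARID2 in the same form of PRC2, had differences of 0.0097 in si-BAP1 and -0.036 in si-MBD5 cells and did not pass.

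**Figure D2:**
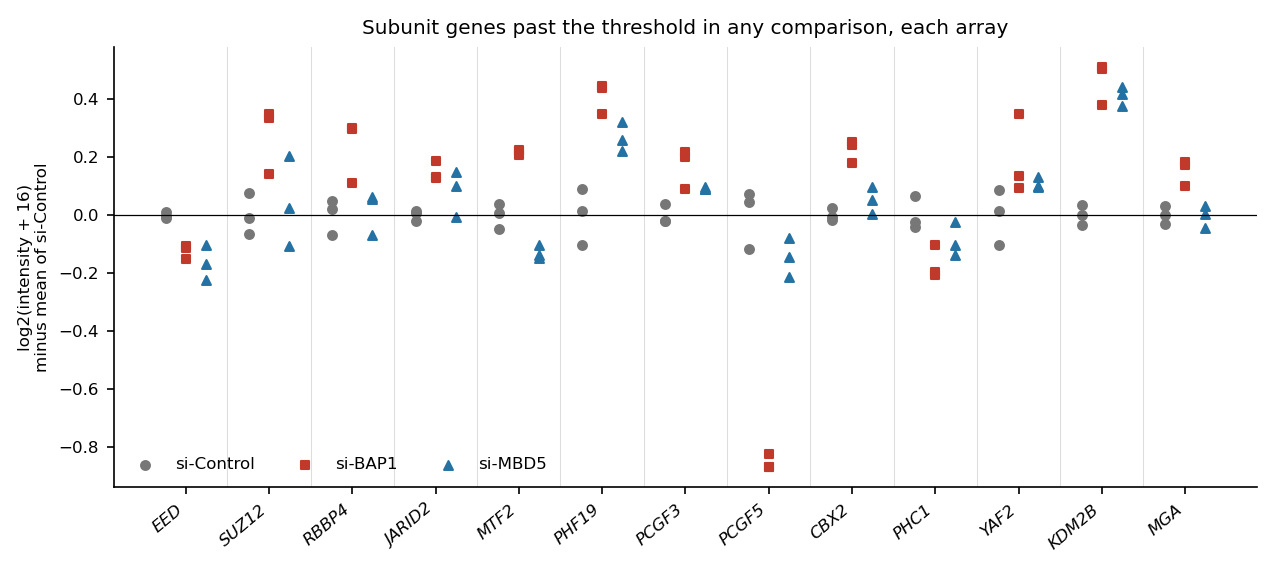
Each array's log2(intensity + 16) minus the control mean (y axis) for the 13 subunit genes that passed in any comparison (x axis); circles are si-Control, squares si-BAP1 and triangles si-MBD5. MTF2 lies above the controls in si-BAP1 and below them in si-MBD5 arrays, and PCGF5 lies far below them in si-BAP1 arrays.

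In PRC1, the ubiquitin ligase RING1 gave -0.0079 in si-BAP1 (95% interval -0.12 to 0.10) and 0.063 in si-MBD5 cells (-0.049 to 0.18), and neither passed. The PCGF proteins pair with RING1 or RNF2 and set the kind of PRC1. Of the 5 measured, 1 was higher and 1 lower in si-BAP1 cells, where 23.5% of all genes passed. None of the 5 passed in si-MBD5 cells by limma, against 16.3% of all genes, and 1 had an unadjusted p under 0.05. PCGF5, a subunit of variant PRC1, read 313, 353 and 359 in control, 179, 186 and 179 in si-BAP1 and 322, 306 and 292 in si-MBD5 arrays. The si-BAP1 arrays lay far below the 6 others, and si-MBD5 overlapped control. PCGF5 fell by 0.85 in si-BAP1 cells (SE 0.053, limma adjusted p = 2.5e-07), a 1.81-fold lower level on the scale used. In si-MBD5 cells the difference was -0.15 (adjusted p = 0.0843), which passed without si-Control replicate 1 (-0.21, adjusted p = 0.0182). The direct difference was -0.71 (SE 0.053, adjusted p = 4.2e-06).

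The 5 PCGF5 probe sets did not move alike. In si-BAP1 cells 3 passed as lower, at -0.85, -0.44 and -0.15, and the other two gave -0.13 and 0.011. The third of these, at a mean of 112 in control, 99.7 in si-BAP1 and 95.5 in si-MBD5 arrays, was also lower in si-MBD5 cells (-0.20, limma adjusted p = 0.00987 over probe sets). It is the brightest once the types _x_at and _s_at are left out, where PCGF5 became -0.15 (adjusted p = 0.0288) in si-BAP1 cells, -0.20 (adjusted p = 0.00812) in si-MBD5 cells, and 0.053 (adjusted p = 0.547) in the direct difference. In the direct difference 4 of the 5 probe sets were below 0, and the dimmer one at -0.44 in si-BAP1 cells also passed there (-0.38, adjusted p = 0.00978 over probe sets). With all 5 averaged, PCGF5 was at -0.31 in si-BAP1 cells (adjusted p = 8.3e-05) and at -0.25 in the direct difference (adjusted p = 0.00138).

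PCGF3, the closest paralogue of PCGF5, read 84.2, 88.3 and 84.3 in control, 92.0, 101 and 102 in si-BAP1 and 92.0, 92.7 and 92.0 in si-MBD5 arrays. Both knockdowns lay above control. PCGF3 rose by 0.17 in si-BAP1 cells (SE 0.047, limma adjusted p = 0.0173), and its 0.092 in si-MBD5 cells did not pass (adjusted p = 0.221). The call was lost without si-BAP1 replicate 2 (adjusted p = 0.0601), si-BAP1 replicate 3 (0.0822), si-Control replicate 1 (0.0547) or si-Control replicate 3 (0.0547). PCGF6 gave 0.25 in si-BAP1 cells with a wide 95% interval of 0.016 to 0.48 (adjusted p = 0.121), PCGF1 gave 0.038 and PCGF2 gave 0.021.

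**Figure D3:**
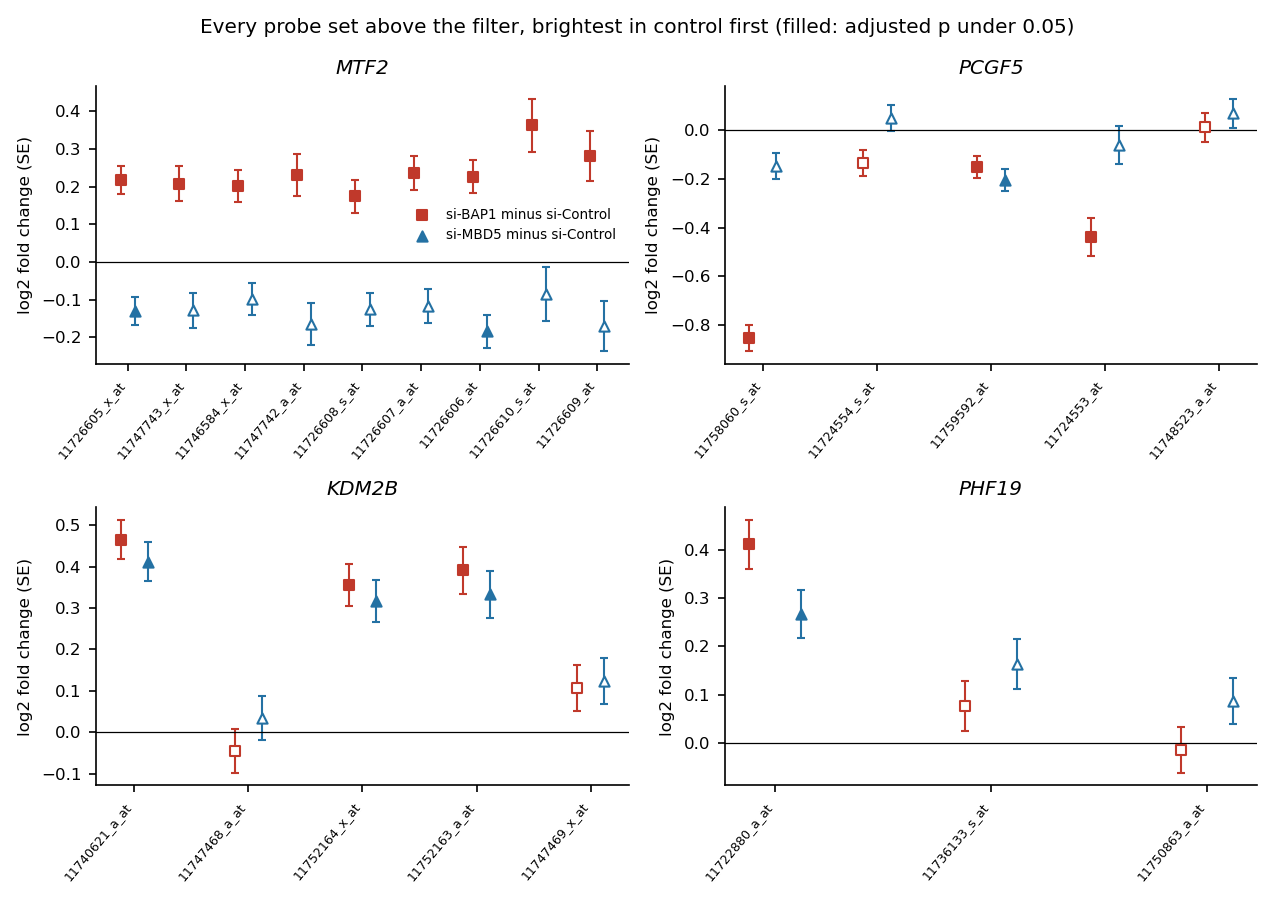
Log2 fold change with its SE (y axis) of every probe set above the filter (x axis, brightest in control first) for MTF2, PCGF5, KDM2B and PHF19; squares are si-BAP1 and triangles si-MBD5 against si-Control, filled where adjusted p over probe sets was under 0.05. All 9 MTF2 probe sets keep 1 sign per knockdown, whereas those of PCGF5 run from -0.85 to 0.011 in si-BAP1.

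Canonical PRC1 had 1 subunit higher and 1 lower of 7 in si-BAP1 cells (28.6%, against 23.5% of all genes). None of the 7 passed in si-MBD5 cells by limma, against 16.3% of all genes, and 1, PHC3, had an unadjusted p under 0.05. CBX2, a chromodomain subunit that compacts chromatin, read 176, 182 and 177 in control, 204, 216 and 214 in si-BAP1 and 186, 192 and 179 in si-MBD5 arrays. Its si-BAP1 arrays lay above all 6 others. CBX2 rose by 0.22 in si-BAP1 cells (SE 0.042, limma adjusted p = 0.00145), and its 0.050 in si-MBD5 cells did not pass (adjusted p = 0.484). The other CBX proteins measured, CBX6 and CBX7, gave -0.093 and -0.052 in si-BAP1 cells and -0.084 and 0.010 in si-MBD5 cells, none past.

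PHC1, a polyhomeotic protein whose SAM domain polymerises PRC1, read 108, 117 and 109 in control, 103, 95.1 and 94.5 in si-BAP1 and 109, 103 and 99.8 in si-MBD5 arrays. The si-BAP1 arrays lay below control, and si-MBD5 overlapped both. PHC1 fell by 0.17 in si-BAP1 cells (SE 0.050, limma adjusted p = 0.0255). The call was lost without si-BAP1 replicate 2 (adjusted p = 0.0802), si-BAP1 replicate 3 (0.0993) or si-Control replicate 2 (0.123). Its paralogue PHC3 lay below control in all knockdown arrays, at -0.11 in si-BAP1 (adjusted p = 0.229) and -0.17 in si-MBD5 cells (adjusted p = 0.0697), and did not pass. PHC2 gave -0.0028 and -0.067, and SCMH1, a SAM-domain partner of the PHC proteins, gave 0.079 and 0.12, none past.

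Of the 8 variant PRC1 subunits, 3 were higher in si-BAP1 cells (37.5%, against 23.5% of all genes). In si-MBD5 cells 1 was higher (12.5%, against 16.3%), and none of the 8 was lower in either. PCGF5, also of variant PRC1 but counted with the PCGF proteins, was lower in si-BAP1 cells (-0.85). KDM2B, which carries variant PRC1 to unmethylated CG-rich DNA through its CXXC domain, read 151, 159 and 155 in control, 207, 227 and 228 in si-BAP1 and 206, 217 and 212 in si-MBD5 arrays. All 6 knockdown arrays lay above control and overlapped each other. KDM2B rose by 0.47 in si-BAP1 cells (SE 0.046, limma adjusted p = 8.9e-06) and by 0.41 in si-MBD5 cells (SE 0.046, adjusted p = 6.4e-05), and the direct difference was 0.053 (95% interval -0.046 to 0.15, adjusted p = 0.548). Of its 5 probe sets, 3 passed as higher in both knockdowns; the others gave -0.045 and 0.11 in si-BAP1 and 0.034 and 0.12 in si-MBD5 cells. With the mean of all 5, the values were 0.25 and 0.24, both past.

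**Figure D4:**
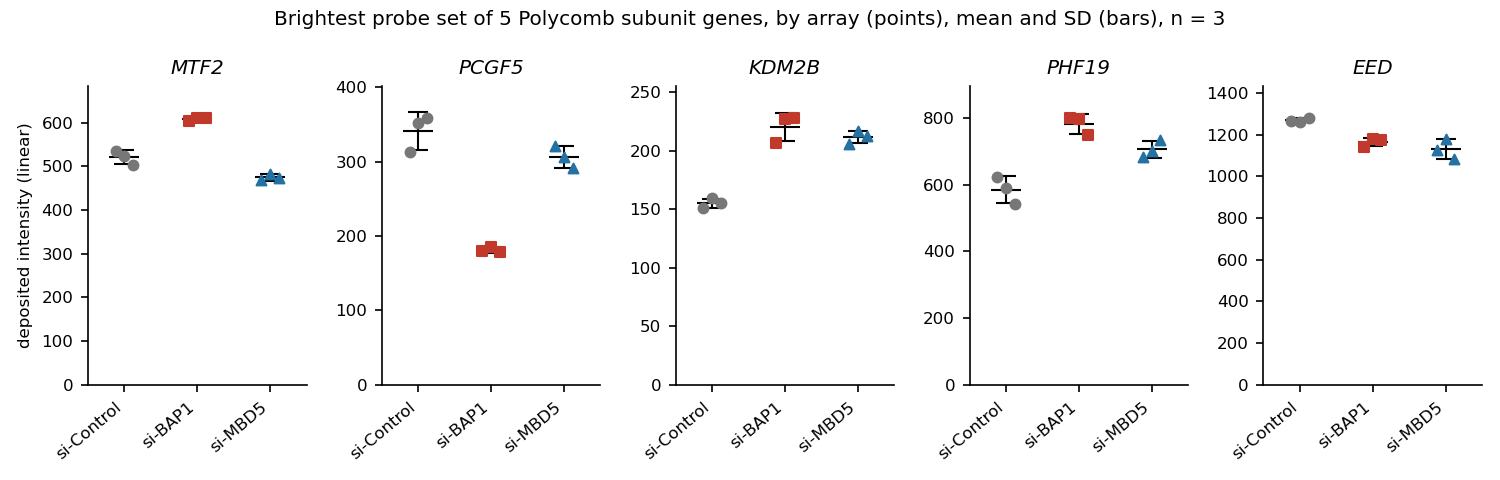
Deposited intensity on a linear axis (y axis) of the brightest probe set of MTF2, PCGF5, KDM2B, PHF19 and EED in the si-Control, si-BAP1 and si-MBD5 groups (x axis); points are arrays, bars the mean and SD of n = 3. KDM2B stands at 151 to 159 in control and at 206 to 228 in the knockdown arrays.

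MGA, the subunit of the variant complex with E2F6 and L3MBTL2 that binds E-box DNA with MAX, read 551, 563 and 538 in control, 592, 622 and 628 in si-BAP1 and 552, 563 and 534 in si-MBD5 arrays. The si-BAP1 arrays lay above the 6 others, and si-MBD5 overlapped control closely. MGA rose by 0.15 in si-BAP1 cells (SE 0.038, limma adjusted p = 0.00972) and was -0.0031 in si-MBD5 cells (adjusted p = 0.97). The si-BAP1 call rests on its brightest probe set, of type _s_at: without such types it was 0.075 (adjusted p = 0.489), and with its 3 probe sets averaged 0.084 (0.195). The dimmest MGA probe set was higher in si-MBD5 cells (0.17, adjusted p = 0.0443 over probe sets), and its direct difference was -0.14 (adjusted p = 0.111). E2F6 and L3MBTL2, of the same complex, gave 0.070 and 0.032 in si-BAP1 and 0.048 and -0.080 in si-MBD5 cells and did not pass.

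YAF2, which with its paralogue RYBP stimulates variant PRC1, read 201, 219.6 and 232 in control, 240.1, 281 and 233 in si-BAP1 and 234, 239.7 and 233 in si-MBD5 arrays. The si-BAP1 arrays lay above control, with replicate 3 close to the highest control array. YAF2 passed narrowly in si-BAP1 cells, by 0.19 (SE 0.065, limma adjusted p = 0.0472). It did not pass over probe sets (adjusted p = 0.0549), nor without any of 6 arrays, among them si-BAP1 replicate 2 (0.195) and si-Control replicate 1 (0.194), whose absence lowered it to 0.11 and 0.14. The call was also lost after median centring (adjusted p = 0.0774), with no filter (0.068), with its probe sets averaged (0.0999), without _x_at and _s_at probe sets (0.249), with no intensity trend (0.0596) and with only the 6 arrays compared (0.0688). RYBP gave 0.027 in si-BAP1 and 0.11 in si-MBD5 cells, BCOR, a corepressor of the PCGF1 complex, gave -0.045 and -0.018, and BCORL1, its paralogue, gave -0.062 in both, none past.

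Compared directly, si-BAP1 and si-MBD5 cells differed in 5 of the 32 members, 4 higher and 1 lower in si-BAP1 (15.6%, against 9.97% of all genes, 5.76% higher and 4.21% lower). Over all genes 716 were higher and 524 lower, and after quantile normalization 603 and 711. They are RBBP4 at 0.22 (limma adjusted p = 0.026), MTF2 at 0.35 (4.2e-05), CBX2 at 0.17 (0.0182), MGA at 0.16 (0.0196) and PCGF5 at -0.71 (4.2e-06). The groups did not overlap in 9 of the 32 members, against 25.0% of all genes. Of these, RBBP4, CBX2 and MGA were each lost without si-BAP1 replicate 2, si-BAP1 replicate 3, si-MBD5 replicate 1 or si-MBD5 replicate 3, with adjusted p up to 0.119 for RBBP4, 0.0733 for CBX2 and 0.0891 for MGA. RBBP4 was also lost without the _x_at and _s_at types (0.135, adjusted p = 0.179) and with only the 6 arrays compared (0.0513), and MGA without those probe sets (0.050, adjusted p = 0.709) or with its probe sets averaged (0.021, 0.819). EED, PHF19 and KDM2B, which moved the same way in both knockdowns, did not differ past the threshold. SUZ12 did not pass at 0.23 (adjusted p = 0.0605), though it did with the mean of its probe sets (0.0221).

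Over the 85 member probe sets above the filter, 25 were higher and 5 lower in si-BAP1 cells (35.3%, against 20.5% of the 27195 probe sets tested). In si-MBD5 cells 6 were higher and 4 lower (11.8%, against 12.9%), and in the direct difference 14 were higher and 2 lower (18.8%, against 7.81%). The 9 MTF2 probe sets are 9 of the 25 and 9 of the 14. Of the 13 members called in si-BAP1 cells, 11 have more than 1 probe set above the filter. The others all passed in the same direction for 3 of the 11, some did for 3, and none did for 5 (EED, PHF19, PHC1, YAF2 and MGA). No other probe set of the 11 passed in the opposite direction.

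Other Polycomb-associated proteins, relatives and partners of these subunits, had 27 of 31 genes tested. In si-BAP1 cells 8 were higher and 3 lower (40.7%, against 23.5% of all genes). HDAC1, a histone deacetylase, rose from a mean of 689 in control to 945 (log2 0.45) in si-BAP1 and 858 (0.31) in si-MBD5 cells, the latter call lost without _x_at and _s_at probe sets. SCML1, a sex-comb-on-midleg-like protein, fell from 444 to 311 in si-BAP1 (-0.49) and 344 in si-MBD5 cells (-0.35). AUTS2 and FBRSL1, paralogues of the PRC1 partner FBRS, rose by 0.40 and 0.36 in si-BAP1 cells. In si-MBD5 cells 2 of the 27 were higher and 2 lower (14.8%, against 16.3%), with CSNK2A2, a casein kinase subunit, at 0.18 and SKP1, an adaptor of ubiquitin ligases, at -0.18. In the direct difference 6 were higher and 1 lower (25.9%, against 9.97%), among them FBRSL1 at 0.32, TFDP1 at 0.28, DCAF7 at 0.26 and AUTS2 at 0.26. The si-MBD5 call of CSNK2A2 was lost without si-Control replicate 2, si-Control replicate 3 or si-MBD5 replicate 3 (limma adjusted p up to 0.111), and that of SKP1 without si-BAP1 replicate 3, si-Control replicates 1 and 2 or si-MBD5 replicates 1 and 3 (up to 0.14). The direct call of TFDP1 was lost without si-BAP1 replicates 2 and 3 or si-MBD5 replicate 1 (up to 0.0832).

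Genes of H2A deubiquitination had 12 of 14 tested, with 3 higher and 1 lower in si-BAP1 and 2 higher and 2 lower in si-MBD5 cells (33.3% in each, against 23.5% and 16.3% of all genes). FOXK2, a forkhead factor of the BAP1 complex, rose from a mean of 192 in control to 256 in si-BAP1 (0.39) and 223 in si-MBD5 cells (0.20). Its direct difference of 0.19 passed, the only 1 of the 12 to do so (8.33%, against 9.97% of all genes). ASXL1, the subunit that activates BAP1, was lower on its brightest probe set (-0.18 and -0.23), and its sign turned with the mean of its probe sets (0.035 and 6.8e-04). UBE2O, a ubiquitin-conjugating enzyme that acts on BAP1, gave 0.17 and 0.18, USP21, another H2A deubiquitinase, gave 0.19 in si-BAP1, and OGT, a glycosyltransferase bound to the complex, gave -0.22 in si-MBD5 cells. Histone-modifying enzymes and partners that oppose Polycomb had 16 of 17 tested, with 4 higher in si-BAP1 (RBBP5 0.30, NSD2 0.20, NSD1 0.15, SETD2 0.11) and 1 higher and 1 lower in si-MBD5 cells (RBBP5 0.18, DPY30 -0.12). These are 25.0% and 12.5% of the 16, against 23.5% and 16.3% of all genes. None of the 16 passed in the direct difference by limma, against 9.97% of all genes, and 5 had an unadjusted p under 0.05. Leaving out single arrays ended the calls of UBE2O in both knockdowns (adjusted p up to 0.177 without si-Control replicate 2 in si-BAP1 and 0.199 in si-MBD5), NSD1 (0.188 without si-Control replicate 1), SETD2 (0.153 without si-BAP1 replicate 3), RBBP5 in si-MBD5 (0.0653 without si-MBD5 replicate 2), DPY30 (0.157 without si-Control replicate 3) and FOXK2 in the direct difference (0.0522 without si-BAP1 replicate 1). Averaging probe sets ended the si-MBD5 calls of FOXK2 (0.0918), OGT (0.217) and DPY30 (0.203). It also ended the si-BAP1 calls of NSD1 (0.18) and SETD2 (0.512). Without _x_at and _s_at probe sets, SETD2 fell to 0.021 in si-BAP1 cells (limma adjusted p = 0.835).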

How the data were processed

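Total RNA from 9 samples was hybridised to Affymetrix arrays, one per sample. The authors deposited 1 intensity per probe set and array on a linear scale, made with MAS5 per the submitters' processing notes; the version and any step between arrays are not given in the sources used here. Array medians were 36.9 to 38.2. Of the values over 20, 23.0% lay on a grid of ninths, against 1% if spread evenly. Whether a step between the 9 arrays made this grid was not tested. Arrays of 1 group correlated at 0.998 to 0.999, and arrays of different groups at 0.996 to 0.998.

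Symbols came from the platform's annotation, updated by identifier for 44961 of 44988 probe sets with 1 symbol. Probe sets above the 40th percentile of mean intensity (25.5) were kept, and the brightest stands for a gene. On log2(intensity + 16), limma 3.58.1 in R 4.3.3 fitted 3 group means with an intensity trend, and p-values were adjusted over all 12434 genes by the Benjamini-Hochberg method. The number of arrays limits the precision. Intervals are at 95%. On simulated data for the si-BAP1 comparison (12434 genes), 64% of genes changed by 0.25 and 2% of those changed by 0.1 were found; for si-MBD5 62% and 4%.

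Members past the threshold are named with their values, as are their paralogues and partners. From each other list, up to 4 called genes per comparison are named, those with the greatest change whose arrays do not overlap. Members and lists were chosen with earlier results of these data known. The alternatives covered normalization, the constant, the filter, the choice of probe set, the variance model, the samples fitted, a replicate block and each array left out.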

Additional observations from a re-analysis of the deposited data

Results flagged for a closer look

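For 5 members, the effects of the 2 knockdowns against the shared control differed by a direct test of si-BAP1 minus si-MBD5 (limma, adjusted over all genes tested). RBBP4 differed by 0.22 on the log2 scale, with 0.24 in si-BAP1 and 0.016 in si-MBD5 cells against control. MTF2 differed by 0.35, with 0.22 and -0.13. PCGF5 differed by -0.71, with -0.85 and -0.15. CBX2 differed by 0.17, with 0.22 and 0.050, and MGA by 0.16, with 0.15 and -0.0031. Of these 5 direct differences, only that of MTF2 held under all 22 alternatives. That of PCGF5 turned to 0.053 without _x_at and _s_at probe sets. Those of RBBP4, CBX2 and MGA were lost with some single arrays left out.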

How the results depend on the processing

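Of the 22 member calls over the 3 comparisons, 10 held under all 22 alternatives: RBBP4, MTF2, PHF19, PCGF5, CBX2 and KDM2B in si-BAP1, EED, PHF19 and KDM2B in si-MBD5, and MTF2 in the direct difference. For PHF19, CBX2, KDM2B and EED, leaving out _x_at and _s_at probe sets kept the same brightest probe set, so their values could not change. CBX2 had 1 probe set above the filter, so averaging left it unchanged too. Sizes varied among the si-BAP1 calls that held. PCGF5 went from -0.85 to -0.15 without those types, and PHF19 from 0.41 to 0.16 with probe sets averaged. The 13 members called in si-BAP1 became 8 to 14 with 1 array left out, 8 without si-BAP1 replicate 2; the 4 in si-MBD5 became 3 to 5. The 5 in the direct difference became 2 to 6 with 1 array left out, and 2 without _x_at and _s_at probe sets, where 29 members had a probe set. Over all genes, the 2025 called in si-MBD5 became 1266 without si-Control replicate 2, and the 1240 in the direct difference 759 without si-BAP1 replicate 3 and 721 without si-MBD5 replicate 1. Signs turned with the mean of probe sets for ASXL1 in si-BAP1 (0.035) and si-MBD5 (6.8e-04), MGA (0.063) and SUZ12 (-0.044) in si-MBD5, and PHF19 (-0.015) in the direct difference. They turned without _x_at and _s_at probe sets for MGA (0.024), SUZ12 (-0.11) and SKP1 (0.071) in si-MBD5 and PCGF5 (0.053) in the direct difference, and with quantile normalization for MGA in si-MBD5 (0.0225). With 1 array left out, the si-MBD5 values ran from -0.018 to 0.058 for RBBP4, -0.020 to 0.017 for MGA and -0.041 to 0.11 for SUZ12. The causes were not tested beyond the change of probe set. With the replicate number as a block, 13, 4 and 5 members passed and no member's call changed. SETD2 in si-BAP1 (0.0669) and DPY30 in si-MBD5 cells (0.0767) lost theirs. Same-numbered arrays correlated at -0.43 to 0.48 in their deviations, with 3 of 9 pairs over 0.1. The numbers were therefore not taken to pair the samples. Differently numbered arrays of different groups correlated at -0.56 to 0.47, and a factor shared by arrays in another order was not modelled. Low signal limits MBD5.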

Other observations

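Genes known in other cell types as targets of Polycomb silencing had 38 of 64 members bright enough to test, so a low level of the rest was not examined. In si-BAP1 cells 6 were higher and 4 lower (26.3%, against 23.5% of all genes). CDKN2B, a cell cycle inhibitor, fell from a mean intensity of 105 in control to 68.2 (log2 -0.52). Its neighbour CDKN2A, given beside it and not among the 4 named by size, was at 2339 in control and 2563 in si-BAP1 cells (0.13). The alternatives were not run for this CDKN2A value. DLX2, a homeobox factor, fell from 85.3 to 56.6 (-0.48), and WNT5A, a secreted ligand, from 739 to 599 (-0.30). FOXF2, a forkhead factor, rose from 881 to 1208 (0.45). In si-MBD5 cells 4 were higher and 4 lower (21.1%, against 16.3% of all genes), with DLX2 at -0.35, CDKN2B at -0.29, DLX1 at -0.22 and BMP4, a secreted ligand, at 0.23. In the direct difference FOXF2 (0.27) and CDKN2A (0.11) were higher and CDKN2B (-0.23) lower in si-BAP1 cells (7.89%, against 9.97% of all genes). The si-MBD5 calls of DLX1 (adjusted p up to 0.0719) and BMP4 (up to 0.0589) and the direct calls of CDKN2A (up to 0.112) and CDKN2B (up to 0.0982) were lost when single arrays were left out, and the si-MBD5 calls of DLX2 (0.165) and CDKN2B (0.0548) when probe sets were averaged.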
